A study of Mus musculus with 10 samples.

Results

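The genes of glucose uptake, glycolysis, and glycogen synthesis and breakdown were followed across the EDL, psoas, and soleus muscles of the mouse. The members were a list of 42 gene symbols, drawn up by pathway, and 41 of them were found among the 16112 genes of the count tables. Aldoc was not analysed here. Total RNA was read in 10 libraries, with 3 replicates for EDL, 3 for psoas, and 4 for soleus. The EDL (extensor digitorum longus) is a fast muscle of the lower leg, the psoas a fast muscle of the trunk and hip, and the soleus a slow postural muscle of the calf.

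All 10 libraries came from wild-type mice of the strain B6C3Fe a/a-Ttnmdm/J, a colony that carries the mdm mutation of the titin gene, and no agent was given. The EDL libraries 1, 2, and 3 came from mice aged 42, 54, and 44 days, as did psoas 1, 2, and 3, and the soleus libraries 1 to 4 came from mice aged 42, 44, 32, and 44 days. The labels hold 7 animal codes, and 3 of these codes have more than 1 library. The study's methods give fewer mice than there are codes, so that 2 codes may stand for the same mouse. Total counts ranged from 12737971 to 50431713 per library. The reads of 4 libraries (EDL 1, EDL 2, psoas 1, and psoas 2, all labelled male) had been trimmed for quality by the authors and those of the other 6, soleus among them, had not. By animal code, soleus 1 goes with psoas 1, soleus 2 with EDL 3, and soleus 4 with psoas 3. The sex of each soleus library is not listed here. No fit had sex as a term, so its part in the soleus comparisons was not tested. The study's methods give several sequencing runs, and no fit had the run as a term either. The values with trimming as a covariate and without the trimmed libraries are given beside the counts. The fiber markers went with the labels. The summed level of 10 fast fiber genes was 80606 to 112900 CPM in EDL, 116180 to 119470 in psoas, and 15546 to 30017 in soleus, and that of 8 slow fiber genes was 77.1 to 369 CPM in EDL, 38.9 to 115 in psoas, and 19712 to 31555 in soleus. CPM is the count of a gene scaled to its library total, after that total was adjusted by the TMM method.

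Glucose enters the fiber through membrane transporters and is phosphorylated by hexokinase. It is then either split by the glycolytic enzymes to pyruvate, with a yield of ATP that needs no oxygen, or stored as glycogen. Glycogen phosphorylase, switched on by phosphorylase kinase when calcium rises, releases glucose phosphate from this store within the fiber, and muscles of fast fibers are known for high activity of these enzymes. Many steps have isozymes, of which one is the muscle form and the others serve most other tissues.

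Many genes of the pathway were lower in soleus than in both fast muscles, and the 5 members with the largest fold changes were Gpd1, Gpd2, Pfkfb3, Phka1, and Phkg1 in both comparisons. Genes were called where they changed by more than 2-fold with a p under 0.01 after Benjamini-Hochberg adjustment over all genes (edgeR's quasi-likelihood test). In soleus vs EDL, 11 members were called lower and 0 were called higher, against 2.18% and 3.59% of all genes. With edgeR, 8 members were higher and 20 lower at an unadjusted p under 0.05. DESeq2 called 2 higher and 13 lower, and limma-voom 1 and 13. At an adjusted p under 0.05 and any fold, 19 were lower and 4 higher (8.8% and 9.79% of all genes) and 18 did not pass. In soleus vs psoas, 18 members were called lower and 2 higher, against 2.71% and 2.99% of all genes, and at an adjusted p under 0.05 the numbers were 23 and 4 (6.78% and 7.75% of all genes). In psoas vs EDL, 0 were called higher and 2 lower, against 0.54% and 1.57% of all genes. With edgeR, 16 were higher and 5 lower at an unadjusted p under 0.05. DESeq2 called 3 higher and 2 lower, and limma-voom 0 and 2. Here and below, shares of all genes are given only for the adjusted p of the main edgeR fit. They are not given for the unadjusted p, DESeq2, limma-voom, or fits under other settings, such as trimming as a covariate or left-out libraries. Those counts therefore have no background beside them. At an adjusted p under 0.05, 5 were higher and 2 lower in psoas (4.76% and 6.34% of all genes).

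The median log2 fold change of the 41 members was −0.50 in soleus vs EDL, −1.02 in soleus vs psoas, and 0.44 in psoas vs EDL, where the medians over all genes were −0.05, 0.02, and 0.01. The 3 comparisons share libraries. For 21 members the mean CPM was lowest in soleus and highest in psoas, and for 9 it was lowest in EDL and highest in soleus. The share of all genes in each order was not taken. The order is that of the means, and in some of the 21, such as Aldoa, Eno3, and Pygm, the EDL and psoas libraries overlapped. The 11 members called against both fast muscles were Tpi1, Pfkfb3, Pfkfb4, Gpd1, Gpd2, Pgm1, Phka1, Phkb, Phkg1, Ppp1r3a, and Stbd1.

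**Figure D1:**
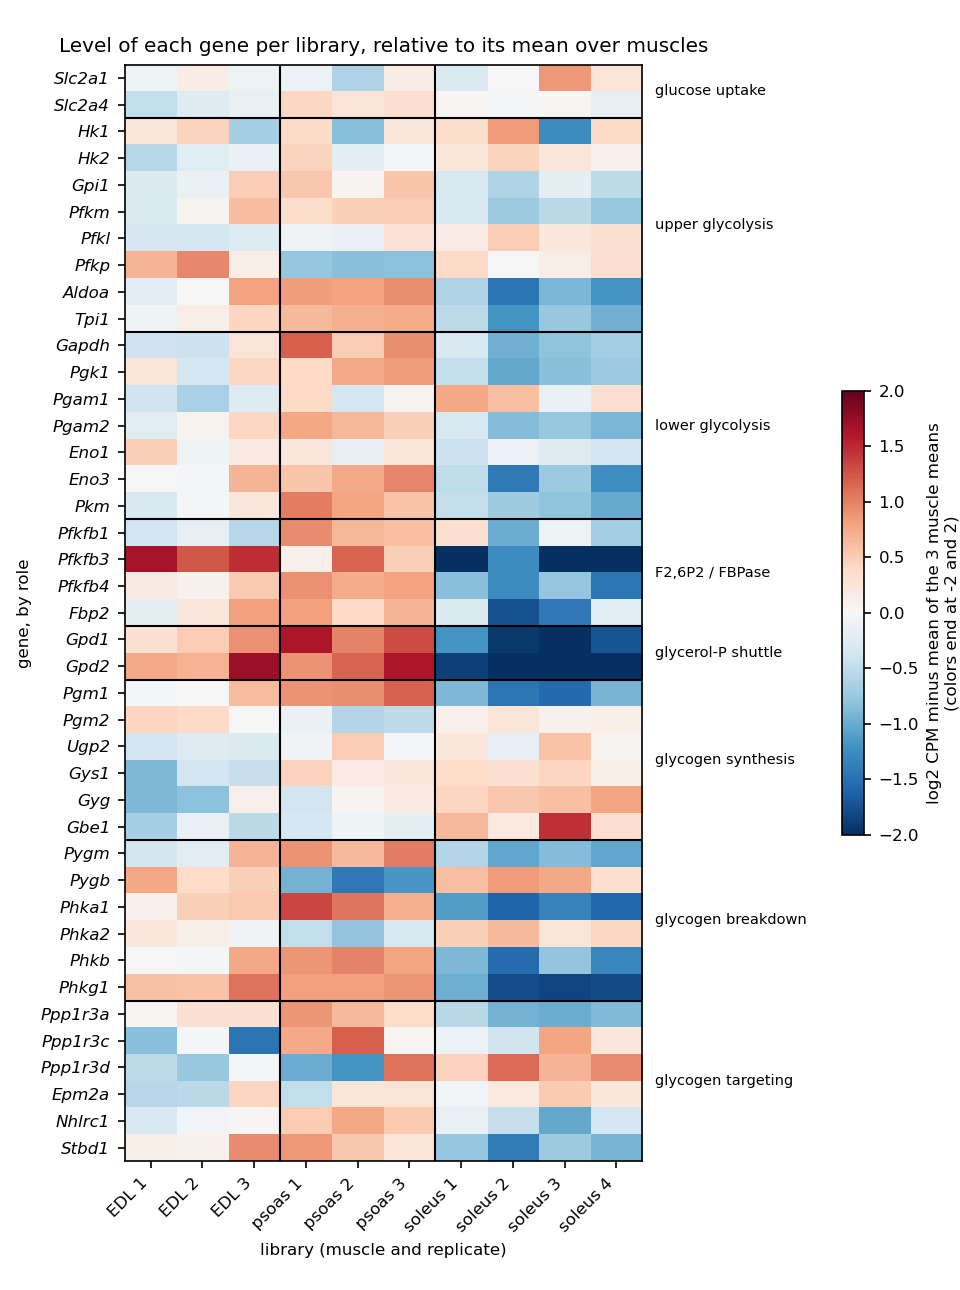
Level of each of the 41 genes (rows, by role) in each of the 10 libraries (columns), as log2 CPM minus the mean of the 3 muscle means. Blue soleus columns against red psoas columns mark the 21 genes whose mean CPM was lowest in soleus and highest in psoas, and the rows Gys1, Gyg, and Gbe1 show the other order.

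Within EDL, replicate 3 stood apart. It held the highest EDL value for 27 of 41 members, and the members summed to 35435 CPM in it, against 20870 in EDL 1 and 22948 in EDL 2. The psoas sums of 38543 to 41665 CPM and the soleus sums of 11561 to 17290 CPM did not overlap with those of EDL. As shares of raw counts, before the TMM adjustment, EDL and psoas overlapped. The members held 2.02%, 2.55%, and 4.30% of counts in EDL 1 to 3 and 3.01%, 2.77%, and 4.26% in psoas 1 to 3. Soleus held 1.44% to 1.63%. The TMM factors were 0.970, 1.11, and 1.21 in EDL 1 to 3 and 0.751, 0.719, and 1.02 in psoas 1 to 3. The psoas vs EDL fold changes and the order of the means use these factors. EDL 3 is the untrimmed EDL library, and it is from a mouse of another sex and age than EDL 1 and 2, and its marker sums differed as well. Fast fiber genes summed to 112900 CPM in it, against 83066 in EDL 1 and 80606 in EDL 2, 8 fibroblast genes to 2379, against 3946 and 3564, and 8 macrophage genes to 123, against 289 and 322. The part of these in its values was not tested. With read trimming as a covariate, 8 members were called in soleus vs EDL, 19 in soleus vs psoas, and 2 in psoas vs EDL, and the medians over members were −0.72, −1.12, and 0.45. With untrimmed libraries only (1 EDL, 1 psoas, and 4 soleus), the median over members was −0.95 in soleus vs EDL, −0.98 in soleus vs psoas, and 0.21 in psoas vs EDL. The calls then remaining were Gpd2 and Pfkfb3 against EDL and Gpd2 against psoas, with fits in which the lone EDL or psoas library is assumed to vary like the soleus libraries.

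**Figure D2:**
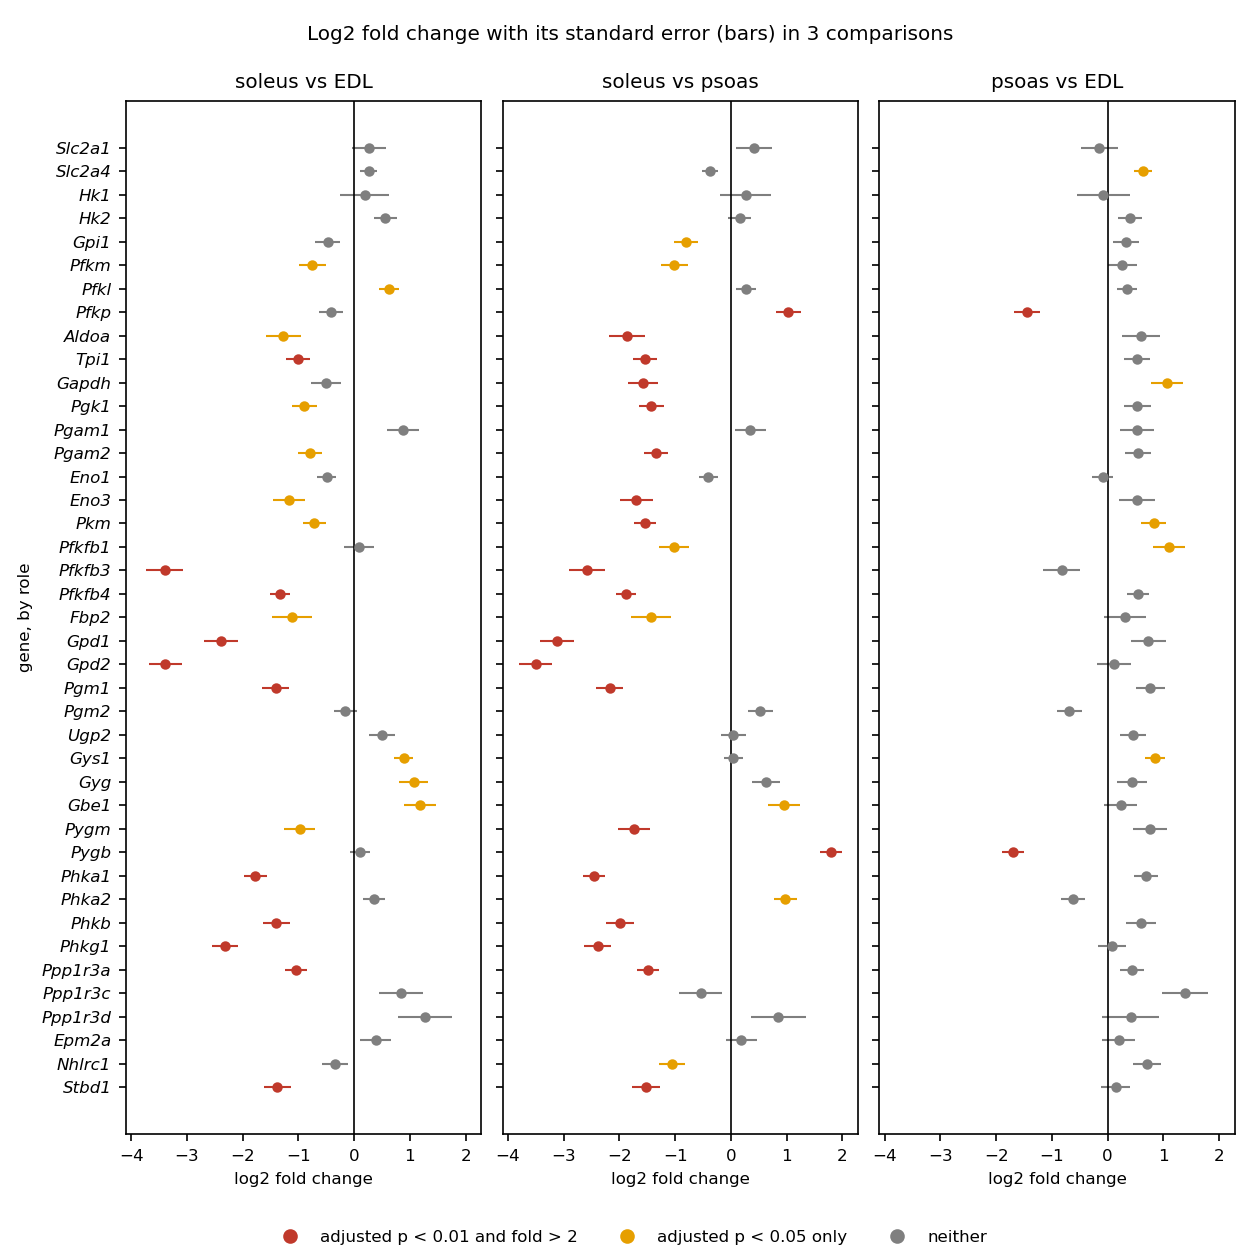
Log2 fold change (points) and its standard error (bars) of the 41 genes in soleus vs EDL, soleus vs psoas, and psoas vs EDL, colored by the test passed. The points furthest left are Gpd2, Pfkfb3, and Gpd1 in both soleus panels, and Pygb and Pfkp are the called points of the psoas vs EDL panel.

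Levels between genes were compared per kilobase of summed exon length. Aldoa, Eno3, and Pygm ranked 1, 2, and 3 in each muscle. Aldoa stood at 2942 ± 1185 CPM per kilobase in EDL (SD, n = 3), 4447 ± 201 in psoas (n = 3), and 1219 ± 311 in soleus (n = 4). The 5 highest members held 72.9% of the members' sum per kilobase in EDL, 72.7% in psoas, and 63.4% in soleus. At the other end, 12 members in EDL, 13 in psoas, and 18 in soleus had a mean under 10 CPM per kilobase, and the lowest were Hk1 in EDL (0.312 ± 0.112) and soleus (0.354 ± 0.171) and Pfkp in psoas (0.245 ± 0.00464).

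The 4 genes of glucose uptake and its first phosphorylation did not pass 0.05 in soleus vs EDL or in soleus vs psoas. Slc2a4 codes for GLUT4, the transporter that insulin and contraction bring to the fiber surface. Its level was 127, 149.7, and 161 CPM in EDL 1 to 3, 237, 214.0, and 226 in psoas, and 184, 174, 181, and 159 in soleus. Psoas lay above both other muscles without overlap, and soleus overlapped EDL. The log2 fold change was 0.63 in psoas vs EDL (SE 0.16, adjusted p = 0.0288), which did not pass 0.05 without EDL 1, EDL 2, or any single psoas library (0.0577 to 0.149). In soleus vs EDL it differed by 0.26 (SE 0.15, adjusted p = 0.238). Slc2a1, the transporter of most other cells, was at 1.56, 1.83, and 1.54 CPM in EDL, 1.53, 1.08, and 1.84 in psoas, and 1.37, 1.65, 3.03, and 1.95 in soleus, with all muscles overlapping, and passed no test.

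Hk2, the main hexokinase of muscle, was at 215, 271, and 289.6 CPM in EDL, 436, 279.6, and 310.2 in psoas, and 376, 435, 373, and 339.9 in soleus. The soleus libraries all lay above EDL and overlapped psoas, and neither comparison passed (log2 fold change 0.56 with SE 0.20 and adjusted p = 0.0724 in soleus vs EDL, 0.16 with SE 0.20 and adjusted p = 0.661 in soleus vs psoas). Hk1, the hexokinase of brain and most tissues, was at 2.97, 3.43, and 1.59 CPM in EDL, 3.30, 1.39, and 2.90 in psoas, and 3.22, 4.55, 1.04, and 3.27 in soleus, with all muscles overlapping, and passed no test.

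Among the enzymes from glucose phosphate to the triose phosphates, Aldoa, Tpi1, and Pfkm were lower in soleus than in both fast muscles at an adjusted p under 0.05. Aldoa, the aldolase of muscle, was at 6095, 7088, and 12506 CPM in EDL, 12749, 12482, and 13601 in psoas, and 4698, 2598, 3774, and 3120.0 in soleus. Soleus was below every EDL and psoas library. The log2 fold change was −1.87 in soleus vs psoas (SE 0.32, adjusted p = 0.00281), a call lost without psoas 2, soleus 2, or soleus 4 (0.01 to 0.0137), and −1.27 in soleus vs EDL (SE 0.32, adjusted p = 0.0185; 0.0582 without soleus 4).

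Tpi1 (chr6:124810586-124814296), which interconverts the triose phosphates, was at 1274, 1483, and 1812 CPM in EDL, 2113, 2212, and 2244 in psoas, and 942, 587, 794, and 695 in soleus. The 3 muscles did not overlap. It was called against psoas (−1.54, SE 0.22, adjusted p = 0.000976) and, at the edge of both thresholds, against EDL (−1.01, SE 0.22, adjusted p = 0.00938). The second call was lost in each of the 10 fits that left out 1 library, EDL, psoas, or soleus (adjusted p 0.0107 to 0.0353).

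Pfkm, the muscle phosphofructokinase that commits sugar to glycolysis, was at 1274.5, 1586, and 2357 CPM in EDL, 1948, 2138, and 2191 in psoas, and 1244.5, 933, 1057, and 908 in soleus. Soleus lay below all others, and EDL 3 above psoas. Pfkm passed only the test at 0.05 (−0.75, SE 0.24, adjusted p = 0.0491 against EDL, and −1.01, SE 0.24, adjusted p = 0.0155 against psoas). The result against EDL was lost without any of 8 single libraries (0.0546 to 0.123), all but EDL 1 and psoas 1, and the result against psoas without psoas 2 or soleus 4 (0.0502 to 0.0543). Gpi1, the phosphoglucose isomerase, was at 204, 224, and 346 CPM in EDL, 357, 254, and 361 in psoas, and 197, 161, 214, and 170.5 in soleus, where soleus overlapped EDL and not psoas. It was lower in soleus than in psoas (−0.81, SE 0.22, adjusted p = 0.0309), but not without psoas 1, psoas 3, soleus 1, soleus 2, or soleus 4 (0.0554 to 0.0889), and it was not past 0.05 against EDL (−0.48, SE 0.22, adjusted p = 0.147).

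In the lower, energy-yielding part of the path, Eno3, Pgam2, Pgk1, Pkm, and Gapdh were called lower in soleus vs psoas. In soleus vs EDL edgeR called 0 of the 7 genes, while DESeq2 and limma-voom each called Eno3. Of the 6 at an unadjusted p under 0.05 with edgeR there, Pgam1 was higher in soleus and the others were lower. Eno3, the muscle enolase, was at 3224, 3145, and 5185 CPM in EDL, 4778, 5483, and 6388 in psoas, and 2279.8, 1221, 1968, and 1373 in soleus. Soleus lay below all EDL and psoas libraries, and EDL 3 lay within psoas. The log2 fold change was −1.70 against psoas (SE 0.30, adjusted p = 0.00314), a call lost without psoas 2, psoas 3, soleus 2, or soleus 4 (0.0106 to 0.0144), and −1.17 against EDL (SE 0.29, adjusted p = 0.0191; 0.061 without soleus 4).

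Pkm, the pyruvate kinase of the last step, was at 538, 648, and 783 CPM in EDL, 1349.8, 1149, and 992 in psoas, and 479, 408, 381, and 332 in soleus. The 3 muscles did not overlap, with psoas highest. It was called against psoas (−1.54, SE 0.21, adjusted p = 0.000684) in every fit that left out 1 library, and it passed 0.05 against EDL (−0.71, SE 0.20, adjusted p = 0.0327) but not without EDL 2, EDL 3, soleus 2, soleus 3, or soleus 4 (0.0589 to 0.0947). In psoas vs EDL the log2 fold change was 0.83 (SE 0.22, adjusted p = 0.0359), lost without EDL 1, EDL 2, soleus 3, soleus 4, or any psoas library (0.0502 to 0.169).

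Pgam2, the muscle phosphoglycerate mutase, was at 362, 451, and 571 CPM in EDL, 736, 685, and 600.2 in psoas, and 347, 236, 254, and 228 in soleus, without overlap. It was called lower in soleus vs psoas (−1.34, SE 0.21, adjusted p = 0.00184) and stayed so in every fit that left out 1 library. Against EDL it was past 0.05 (−0.79, SE 0.21, adjusted p = 0.025), but not without EDL 2, EDL 3, soleus 2, or soleus 4 (0.0501 to 0.0748). Pgk1, which makes ATP from bisphosphoglycerate, was at 790.3, 527, and 886 CPM in EDL, 876, 1124, and 1189 in psoas, and 476, 326, 373, and 405 in soleus. Soleus lay below all others, and EDL and psoas overlapped. It was called against psoas (−1.43, SE 0.22, adjusted p = 0.00175) and passed 0.05 against EDL (−0.89, SE 0.22, adjusted p = 0.0188; 0.0513 to 0.0607 without EDL 1 or soleus 2). Eno1, the enolase of most tissues, was at 71.2, 48.1, and 57.5 CPM in EDL, 59.8, 45.4, and 60.8 in psoas, and 38.0, 47.2, 42.7, and 39.3 in soleus. The muscles overlapped, and it passed no test (−0.50, SE 0.17, adjusted p = 0.0664 against EDL).

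Gapdh, the dehydrogenase of the path and a common reference gene, was at 1433, 1415, and 2273 CPM in EDL, 4367, 2720.2, and 3619 in psoas, and 1541, 981, 1089, and 1185 in soleus. Psoas was highest without overlap, and soleus 1 lay within EDL. It was called in soleus vs psoas (−1.57, SE 0.27, adjusted p = 0.00273; lost without psoas 1, soleus 2, or soleus 4, 0.0107 to 0.012) and passed 0.05 in psoas vs EDL (1.06, SE 0.29, adjusted p = 0.0384; lost without EDL 1, EDL 2, psoas 1, psoas 3, soleus 3, or soleus 4, 0.0544 to 0.165). These values are uncertain. The files hold 71 other genes with a stretch of at least 150 bases of at least 95% identity to a Gapdh transcript, and they took 3356309 counts against 528760 for Gapdh itself. Summed with these genes, a sum chosen after the values were seen, the level was 12898 ± 2826 CPM in EDL (n = 3), 25372 ± 4301 in psoas (n = 3), and 8989 ± 1594 in soleus (n = 4), so that the family in psoas was 1.97 times that in EDL. Gapdh itself made up 12.2% to 14.7% of the sum in soleus, 12.7% to 14.7% in psoas, and 12.5% to 14.1% in EDL. Pgk1 shares sequence with 2 genes in the files (93752 counts against 175850) and Eno1 with 3 (9063 against 13906).

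The bifunctional enzymes that make and remove the small activator of phosphofructokinase held some of the widest differences. Pfkfb3, the inducible form (chr2:11471433-11554077), was at 97.1, 73.4, and 85.6 CPM in EDL, 33.0, 69.1, and 42.9 in psoas, and 5.27, 12.9, 7.18, and 6.54 in soleus. The 3 muscles did not overlap, and the order was EDL, psoas, soleus. Soleus was lower than EDL by 10.6-fold (log2 fold change −3.40, SE 0.33, adjusted p = 0.000111) and than psoas by 5.98-fold (−2.58, SE 0.32, adjusted p = 0.000444). Psoas and EDL differed by −0.82 (SE 0.33, adjusted p = 0.126).

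Pfkfb4 was at 27.5, 25.9, and 35.0 CPM in EDL, 45.8, 40.9, and 42.6 in psoas, and 13.7, 10.2, 14.2, and 8.92 in soleus. It was lowest in soleus and highest in psoas without overlap, and was called against EDL (−1.33, SE 0.19, adjusted p = 0.000916) and psoas (−1.88, SE 0.19, adjusted p = 0.000146). Pfkfb1, the form of liver and muscle, was at 17.5, 20.5, and 15.4 CPM in EDL, 43.9, 36.3, and 34.9 in psoas, and 28.7, 11.5, 21.3, and 14.4 in soleus, so that psoas stood above both. It passed 0.05 in psoas vs EDL (1.11, SE 0.29, adjusted p = 0.0332; lost without any EDL or psoas library, 0.0538 to 0.138) and in soleus vs psoas (−1.02, SE 0.27, adjusted p = 0.0254; lost without psoas 1, psoas 2, soleus 2, or soleus 4, 0.052 to 0.0862).

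Fbp2, the muscle fructose bisphosphatase, which runs the phosphofructokinase step backwards, was at 17.0, 22.7, and 33.9 CPM in EDL, 34.2, 25.6, and 31.1 in psoas, and 15.9, 5.80, 7.18, and 16.3 in soleus. Soleus lay below all others. It passed 0.05 against psoas (−1.43, SE 0.36, adjusted p = 0.0207; 0.0632 without psoas 1) and against EDL (−1.12, SE 0.36, adjusted p = 0.0485), the latter lost without any EDL library, psoas 2, psoas 3, soleus 2, or soleus 3 (0.0522 to 0.126).

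The glycerol phosphate shuttle carries electrons from glycolysis to the mitochondria, with Gpd1 as its cytosolic and Gpd2 as its mitochondrial dehydrogenase. Gpd2 (chr2:57237635-57370719) was at 157, 149.8, and 303 CPM in EDL, 172, 206, and 283 in psoas, and 25.3, 15.6, 16.4, and 20.3 in soleus. EDL and psoas overlapped, and every soleus library lay far below both. It was 10.5-fold lower in soleus than in EDL (log2 fold change −3.39, SE 0.30, adjusted p = 7.85e-05) and 11.3-fold lower than in psoas (−3.51, SE 0.30, adjusted p = 6.92e-05). It was called in both comparisons under each of the 19 alternative settings.

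Gpd1 (chr15:99717515-99725005) was at 124, 142, and 189.7 CPM in EDL, 308, 199.8, and 248 in psoas, and 43.6, 26.2, 15.9, and 30.2 in soleus. The groups did not overlap. Soleus was lower by 5.24-fold than EDL (−2.39, SE 0.30, adjusted p = 0.000497) and by 8.68-fold than psoas (−3.12, SE 0.31, adjusted p = 0.000144). Psoas and EDL differed by 0.73 (SE 0.32, adjusted p = 0.153).

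**Figure D3:**
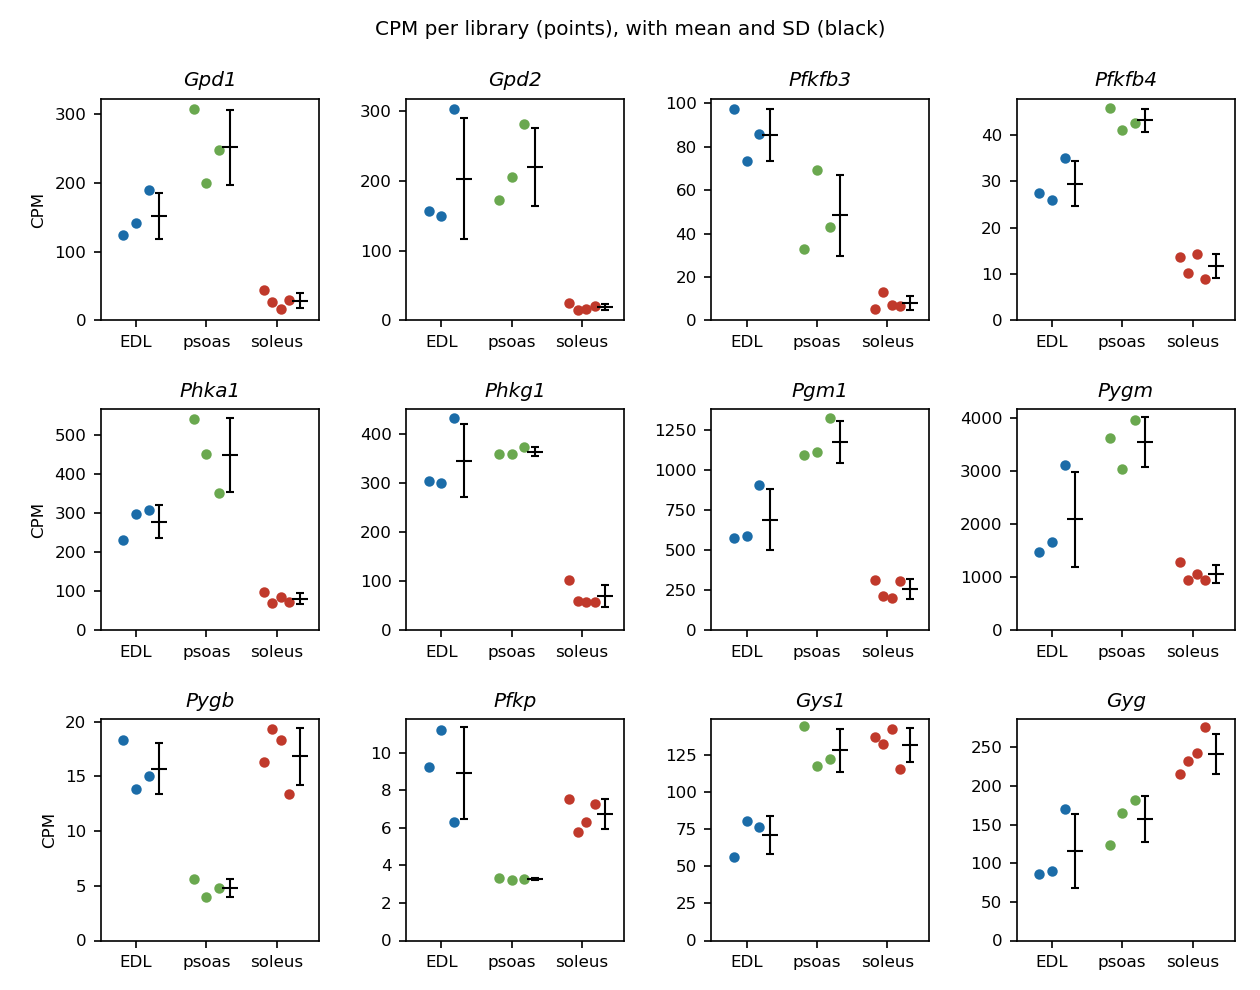
CPM of 12 genes in each library (points, EDL, psoas, and soleus from left to right in each panel), with the mean and SD of the muscle in black, on linear axes from 0. The 4 soleus points of Gpd1, Gpd2, Pfkfb3, Pfkfb4, Phka1, Phkg1, and Pgm1 lie below all others, those of Gyg lie above all others, and in Pygb and Pfkp the 3 psoas points lie lowest.

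Glycogen synthesis was divided. Pgm1 (chr4:99929414-99987294), the phosphoglucomutase that serves both synthesis and breakdown, was at 576, 588, and 909.8 CPM in EDL, 1093, 1111, and 1325 in psoas, and 316, 216, 200.1, and 308 in soleus. It was lowest in soleus and highest in psoas without overlap. The log2 fold change was −2.18 against psoas (SE 0.24, adjusted p = 0.000237) and −1.41 against EDL (SE 0.24, adjusted p = 0.00275; 0.0102 without soleus 2).

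Of the other 5 synthesis genes, Gys1, Gyg, and Gbe1 were higher in soleus vs EDL at an adjusted p under 0.05, and Ugp2 and Pgm2 passed no test. Gys1, the muscle glycogen synthase (chr7:45434844-45456619), was at 56.4, 80.8, and 76.5 CPM in EDL, 145, 118, and 122 in psoas, and 137, 133, 143, and 116 in soleus. EDL lay below both others, and psoas and soleus overlapped. Gys1 was past 0.05 in soleus vs EDL (0.89, SE 0.17, adjusted p = 0.00565) and in psoas vs EDL (0.85, SE 0.18, adjusted p = 0.0161), the latter lost without EDL 1 or psoas 1 (0.0542 to 0.086).

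Gyg, glycogenin, the protein primer of the granule, was at 85.6, 90.2, and 171 CPM in EDL, 124, 165, and 182 in psoas, and 216, 232, 242, and 276 in soleus. Soleus was highest without overlap. It passed 0.05 against EDL (1.07, SE 0.26, adjusted p = 0.0155; lost without EDL 1 or EDL 2, 0.0787 to 0.0869) and not against psoas (0.62, SE 0.25, adjusted p = 0.128). With untrimmed libraries only, the log2 fold change of Gyg against EDL was 0.45.

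Gbe1, the branching enzyme, was at 53.6, 76.4, and 58.5 CPM in EDL, 67.3, 80.0, and 74.5 in psoas, and 133, 97.6, 235, and 107 in soleus. Soleus was highest without overlap, with soleus 3 above the other 3. It passed 0.05 against EDL (1.19, SE 0.29, adjusted p = 0.0163; 0.0927 without EDL 1) and against psoas (0.95, SE 0.29, adjusted p = 0.0453), the latter lost without EDL 1, EDL 2, any psoas library, soleus 1, or soleus 3 (0.0541 to 0.145). Ugp2, which makes the UDP-glucose that the synthase uses, was at 594 to 639.6 CPM in EDL, 724 to 1087 in psoas, and 682 to 1132 in soleus, and passed no test. Pgm2 was at 1.71 to 3.46 CPM and passed no test.

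Of the 6 genes of glycogen breakdown, 3 were called lower in soleus vs EDL, and 4 lower and 1 higher in soleus vs psoas. Pygm, the muscle glycogen phosphorylase (chr19:6384399-6398459), was at 1480.5, 1659, and 3118 CPM in EDL, 3622, 3029.7, and 3956 in psoas, and 1294, 939, 1062, and 946 in soleus. Soleus was below all others, and EDL 3 lay within psoas. It was called against psoas (−1.74, SE 0.28, adjusted p = 0.00207; 0.0102 without soleus 4) and passed 0.05 against EDL (−0.98, SE 0.28, adjusted p = 0.0331), but not without EDL 2, EDL 3, soleus 2, soleus 3, or soleus 4 (0.0551 to 0.0876).

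The 3 genes of the muscle form of phosphorylase kinase, the enzyme that turns phosphorylase on, fell more than phosphorylase itself in both comparisons, a difference that was not tested. Phka1, the regulatory alpha subunit of muscle (chrX:102513975-102644246), was at 232, 298, and 308 CPM in EDL, 542, 453, and 353 in psoas, and 99.3, 71.0, 85.0, and 72.1 in soleus. The groups did not overlap, and it was called at −1.77 against EDL (SE 0.20, adjusted p = 0.000299) and −2.46 against psoas (SE 0.21, adjusted p = 6.46e-05).

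Phkg1, the catalytic gamma subunit of muscle (chr5:129863421-129898549), was at 304, 301, and 431 CPM in EDL, 359, 359, and 374 in psoas, and 103, 59.0, 57.0, and 58.7 in soleus. EDL and psoas overlapped, soleus lay below both, and soleus 1 lay above the other 3 soleus libraries. It was called at −2.32 against EDL (SE 0.24, adjusted p = 0.000146) and −2.39 against psoas (SE 0.24, adjusted p = 0.000146). These values may hold reads of other genes. In the files, 12 genes share a stretch of at least 150 bases of at least 95% identity with a Phkg1 transcript (47843 counts against 66671), among them Sumf2, whose exons overlap those of Phkg1 on the other strand. Phkb, the beta subunit, was at 302, 296, and 523 CPM in EDL, 563, 605, and 526 in psoas, and 164, 105, 176, and 123 in soleus, without overlap. It was called at −1.99 against psoas (SE 0.25, adjusted p = 0.000482) and −1.40 against EDL (SE 0.25, adjusted p = 0.00357; lost without soleus 2 or soleus 4, 0.0114 to 0.0147).

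Phka2, the alpha subunit known from liver, was at 4.11, 3.83, and 3.35 CPM in EDL, 2.51, 2.03, and 2.83 in psoas, and 4.93, 5.50, 4.15, and 4.70 in soleus. The groups did not overlap, with soleus highest, and it passed 0.05 in soleus vs psoas (0.98, SE 0.21, adjusted p = 0.00925).

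Among the proteins that bind glycogen, Ppp1r3a, the muscle subunit that brings protein phosphatase to the granule (chr6:14713977-14755274), was at 819, 998, and 992 CPM in EDL, 1484, 1270.0, and 1043 in psoas, and 546, 417, 406, and 439 in soleus. It was lowest in soleus and highest in psoas without overlap. It was called against psoas (−1.49, SE 0.20, adjusted p = 0.00065) and against EDL (−1.05, SE 0.20, adjusted p = 0.00456; lost without EDL 2, soleus 2, soleus 3, or soleus 4, 0.0136 to 0.0256).

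Stbd1, which tethers glycogen to membranes, was at 25.9, 25.3, and 45.6 CPM in EDL, 43.3, 34.6, and 28.7 in psoas, and 13.9, 9.00, 14.4, and 12.5 in soleus. EDL and psoas overlapped and soleus lay below both. It was called against EDL (−1.38, SE 0.25, adjusted p = 0.00381; lost without soleus 2 or soleus 4, 0.0116 to 0.0128) and psoas (−1.52, SE 0.25, adjusted p = 0.00208; 0.0104 without psoas 1). The other phosphatase-targeting genes among the members, Ppp1r3c and Ppp1r3d, did not pass 0.05 with edgeR, while DESeq2 called Ppp1r3c in psoas vs EDL. Ppp1r3c was at 116 to 312 CPM in EDL, 322 to 726 in psoas, and 241 to 551 in soleus (psoas vs EDL 1.39, SE 0.42, adjusted p = 0.0537), and Ppp1r3d was at 0.888 to 4.49 CPM in all libraries.

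Of the genes whose loss causes Lafora disease, in which misshapen glycogen builds up, Epm2a (laforin) was at 65.8 to 139.9 CPM and passed no test. Nhlrc1 (malin) was at 1.96, 2.32, and 2.47 CPM in EDL, 3.46, 4.12, and 3.47 in psoas, and 2.19, 1.76, 1.20, and 1.90 in soleus, with psoas above both others. It was lower in soleus than in psoas (−1.05, SE 0.24, adjusted p = 0.0126; 0.0573 without psoas 2).

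The 2 members called in psoas vs EDL were isozymes that are not the muscle form. Pygb, the brain form of glycogen phosphorylase (chr2:150786735-150831758), was at 18.3, 13.9, and 15.0 CPM in EDL, 5.59, 3.99, and 4.82 in psoas, and 16.3, 19.3, 18.3, and 13.4 in soleus. Psoas lay below both without overlap, and EDL and soleus overlapped. It was 3.25-fold lower in psoas than in EDL (log2 fold change −1.70, SE 0.20, adjusted p = 0.00141) and 3.48-fold higher in soleus than in psoas (1.80, SE 0.19, adjusted p = 0.000204), both kept in each fit that left out 1 library. With the 4 trimmed libraries alone (EDL 1, EDL 2, psoas 1, psoas 2) Pygb had a log2 fold change of −1.74 in psoas vs EDL (adjusted p = 0.0209), and with the untrimmed libraries alone −1.67 (0.337) and, in soleus vs psoas, 1.79 (0.0344). These fits have fewer libraries, and their p did not pass 0.01.

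Pfkp, the platelet form of phosphofructokinase (chr13:6579768-6648777), was at 9.22, 11.2, and 6.32 CPM in EDL, 3.35, 3.23, and 3.26 in psoas, and 7.53, 5.80, 6.30, and 7.28 in soleus. Psoas lay below both again. It was called in psoas vs EDL (−1.45, SE 0.23, adjusted p = 0.0052; lost without EDL 1, EDL 2, any psoas library, or soleus 4, 0.0113 to 0.0254) and in soleus vs psoas (1.03, SE 0.22, adjusted p = 0.0097; lost in 9 of the 10 fits, all but that without EDL 3, 0.0103 to 0.0386). Exons of Pfkp overlap those of Pitrm1 (7782 counts against 1850) on the other strand, and the strand setting of the counting is not stated.

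Markers of some other cell types also had their lowest levels in psoas. The summed level of 10 tendon genes was 1039 to 1346 CPM in EDL, 50.2 to 107 in psoas, and 121 to 712 in soleus. For 8 fibroblast genes it was 2379 to 3946 CPM in EDL, 946 to 1392 in psoas, and 1406 to 2003 in soleus, and for 8 macrophage genes 123 to 322, 52.0 to 137, and 100.2 to 157. The macrophage sums of psoas overlapped those of both other muscles. No gene of these 3 lists was at 0 in any library. For 8 endothelial genes the sums were 146 to 241, 142 to 167, and 175 to 206 CPM, with EDL and psoas overlapping. Other lists did not have this order. For 7 adipocyte genes the sums were 156 to 279 CPM in EDL, 289 to 482 in psoas, and 408 to 545 in soleus, lowest in EDL as were Gys1 and Tbc1d4, for 7 nerve and Schwann cell genes 36.1 to 57.9, 18.7 to 91.6, and 31.1 to 44.1, and for 6 erythroid genes 5.82 to 73.8, 16.8 to 137, and 3.54 to 25.8, and 1 adipocyte and 1 erythroid gene had a count of 0 in a library. Their part in the levels of Pygb, Pfkp, Gys1, and Tbc1d4 was not tested, and in a whole muscle fewer cells of a type and less RNA per cell cannot be told apart.

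The share of each minor isozyme in its family was taken per kilobase of exon, so that genes of unequal length could be compared. The muscle forms held most of each family in all libraries. The largest minor share in EDL and soleus was that of Phka2, with 1.80%, 1.31%, and 1.11% of the alpha subunit transcripts in EDL, 0.475%, 0.459%, and 0.822% in psoas, and 4.87%, 7.40%, 4.79%, and 6.30% in soleus. The 3 muscles did not overlap. The mean was 5.84% ± 1.25 in soleus (SD, n = 4), 1.40% ± 0.355 in EDL (n = 3), and 0.585% ± 0.205 in psoas (n = 3). Both the lower Phka1 and the level of Phka2 in soleus enter this share.

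Pygb made up 0.820%, 0.556%, and 0.321% of phosphorylase transcripts in EDL, 0.103%, 0.0882%, and 0.0814% in psoas, and 0.835%, 1.36%, 1.14%, and 0.935% in soleus. Pgam1, the mutase of most tissues, was at 1.40, 1.17, and 1.54 CPM in EDL, 2.43, 1.46, and 1.91 in psoas, and 3.15, 2.78, 1.67, and 2.32 in soleus, and passed no test (0.87, SE 0.28, adjusted p = 0.0524 against EDL). It made up 0.110% to 0.164% of mutase transcripts in EDL, 0.0901% to 0.140% in psoas, and 0.279% to 0.496% in soleus. Pfkl, the liver form of phosphofructokinase, was at 0.120% to 0.210% of its family in EDL, 0.145% to 0.189% in psoas, and 0.304% to 0.516% in soleus, and its own level was 5.37, 5.31, and 5.66 CPM in EDL, 6.33, 6.21, and 8.28 in psoas, and 7.59, 9.69, 7.81, and 8.34 in soleus. Soleus lay above EDL without overlap, and it was past 0.05 (0.62, SE 0.18, adjusted p = 0.0317; lost without EDL 1, EDL 2, soleus 2, soleus 3, or soleus 4, 0.0589 to 0.115). For these 3 genes the soleus share lay above that of EDL and psoas in each library. The shares of Hk1 overlapped between all muscles.

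Exact two-sided permutation tests were run on 24 pairs of groups for these shares. The smallest p that the test allows is 0.1 for 3 against 3 libraries and 0.0571 for 4 against 3, so that no share could pass 0.05. In 14 of the 24 pairs the groups did not overlap, and the adjusted p of the smallest was 0.137 (exact permutation test, Benjamini-Hochberg over the 24).

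**Figure D4:**
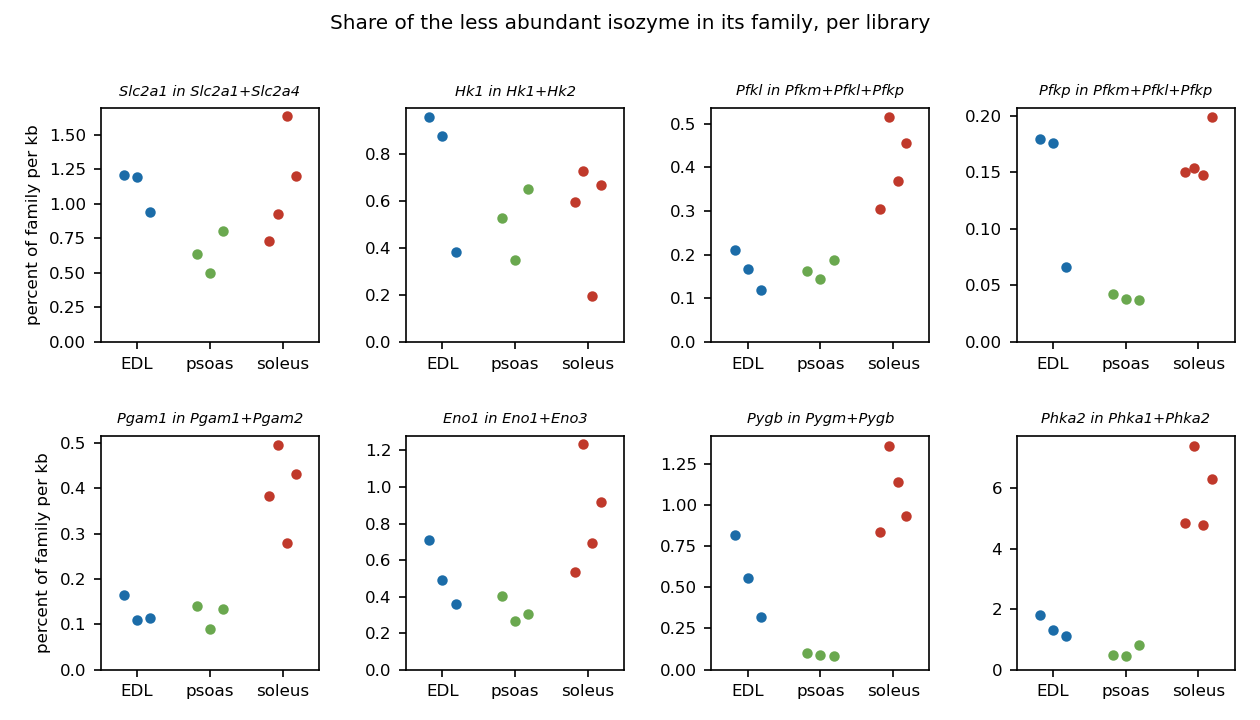
Share of 8 less abundant isozymes in their family (percent, from values per kilobase) in each library of EDL, psoas, and soleus, on linear axes from 0. The soleus points of Pfkl, Pgam1, Pygb, and Phka2 lie above all others, and the psoas points of Pfkp, Pygb, and Phka2 lie below all others.

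Further genes of the pathway came from 2 lists. Of 20 other enzymes and transporters in the files, 1 was called lower in soleus vs EDL (2.18% of all genes), and in soleus vs psoas 4 were called lower and 1 higher (2.71% and 2.99% of all genes). In psoas vs EDL, 0 were called with edgeR (12 at an unadjusted p under 0.05, 2 called by DESeq2 and 1 by limma-voom). Slc37a4, the carrier of glucose phosphate into the endoplasmic reticulum, was at 136, 105, and 168 CPM in EDL, 81.4, 138, and 142 in psoas, and 21.5, 20.2, 13.8, and 25.9 in soleus. Soleus lay below all others, and it was called against EDL (−2.74, SE 0.26, adjusted p = 0.000114) and psoas (−2.56, SE 0.26, adjusted p = 0.000162). Bpgm (−1.38, SE 0.21, adjusted p = 0.00152) and Pgm2l1 (−1.75, SE 0.31, adjusted p = 0.00355), which make bisphosphate intermediates, were called lower and Pgm5, a mutase relative found at cell junctions, higher (1.91, SE 0.40, adjusted p = 0.00886) in soleus vs psoas. Of the 10 fits that left out 1 library, 8 lost the call of Pgm5 (all but those without soleus 1 or soleus 3, adjusted p 0.0103 to 0.0456) and 6 that of Pgm2l1 (without any psoas library, soleus 2, soleus 3, or soleus 4, 0.01 to 0.0137).

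Of 16 regulators in the files, 2 were called lower and 2 higher in soleus vs EDL (2.18% and 3.59% of all genes), 3 lower in soleus vs psoas (2.71%), and 1 higher in psoas vs EDL (0.54%). Tbc1d4, which holds GLUT4 vesicles inside the cell until insulin acts, was at 11.3, 10.8, and 12.9 CPM in EDL, 42.4, 35.0, and 90.1 in psoas, and 54.5, 78.0, 48.7, and 79.5 in soleus. EDL was lowest without overlap (soleus vs EDL 2.49, SE 0.33, adjusted p = 0.000655; psoas vs EDL 2.26, SE 0.34, adjusted p = 0.00357, lost without EDL 1 or EDL 2, 0.021 to 0.0224). Gsk3b, a kinase that switches glycogen synthase off, was called higher in soleus vs EDL (1.29, SE 0.18, adjusted p = 0.00104). Prkag3, a regulatory gamma subunit of the AMP-activated kinase, was at 25.3 to 36.2 CPM in EDL, 30.9 to 45.6 in psoas, and 3.48 to 13.6 in soleus, and was called against EDL (−1.98, SE 0.34, adjusted p = 0.00318; lost without EDL 1 or soleus 2, 0.0122 to 0.0139) and psoas (−2.32, SE 0.35, adjusted p = 0.0013). The calmodulin genes encode the delta subunit of phosphorylase kinase. Calm3 was called against EDL (−1.16, SE 0.21, adjusted p = 0.00357; lost without EDL 2, soleus 1, or soleus 4, 0.0104 to 0.0189) and psoas (−1.28, SE 0.21, adjusted p = 0.00197; lost without psoas 2, 0.011), and Calm2 against psoas (−1.18, SE 0.14, adjusted p = 0.000429).

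Promoter sequences are shown for 6 members, to set beside the values above the DNA next to genes that moved in unlike ways. They are Pygm and Pygb, the phosphorylase pair of which Pygb alone was called lower in psoas vs EDL, Phka1, Pfkfb3, and Gpd2, which were called lower in soleus against both fast muscles, and Gys1, which was not. Each is the 250 bases before the RefSeq start nearest to the 5′ end of the gene (GRCm38.p6), written 5′ to 3′ along the gene. Capitals mark 3 motifs on either strand, the E-box CAGCTG bound by the myogenic factors of the MyoD family, the GC box GGGCGG, and the TATA box TATAAA.
Pygm, chr19:6384158-6384407, + strand: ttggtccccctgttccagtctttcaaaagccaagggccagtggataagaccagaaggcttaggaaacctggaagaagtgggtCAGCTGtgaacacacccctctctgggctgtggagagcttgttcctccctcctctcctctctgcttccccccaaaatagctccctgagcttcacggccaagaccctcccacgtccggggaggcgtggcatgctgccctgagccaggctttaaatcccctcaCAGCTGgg
Pygb, chr2:150786546-150786795, + strand: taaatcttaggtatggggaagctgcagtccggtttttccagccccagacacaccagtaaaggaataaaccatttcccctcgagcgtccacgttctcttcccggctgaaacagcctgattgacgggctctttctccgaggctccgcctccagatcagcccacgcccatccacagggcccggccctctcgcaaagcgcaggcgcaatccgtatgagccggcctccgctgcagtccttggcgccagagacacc
Phka1, chrX:102644247-102644496, - strand: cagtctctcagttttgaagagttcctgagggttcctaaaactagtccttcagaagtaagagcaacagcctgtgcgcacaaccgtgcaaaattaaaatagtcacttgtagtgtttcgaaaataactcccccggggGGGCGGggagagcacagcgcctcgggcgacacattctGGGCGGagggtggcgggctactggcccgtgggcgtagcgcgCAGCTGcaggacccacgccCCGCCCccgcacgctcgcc
Pfkfb3, chr2:11553930-11554179, - strand: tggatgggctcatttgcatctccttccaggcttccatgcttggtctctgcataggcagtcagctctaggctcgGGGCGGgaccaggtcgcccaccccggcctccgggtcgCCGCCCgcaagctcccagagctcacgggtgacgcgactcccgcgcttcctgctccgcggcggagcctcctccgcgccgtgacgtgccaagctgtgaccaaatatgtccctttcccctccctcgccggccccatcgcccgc
Gpd2, chr2:57237428-57237677, + strand: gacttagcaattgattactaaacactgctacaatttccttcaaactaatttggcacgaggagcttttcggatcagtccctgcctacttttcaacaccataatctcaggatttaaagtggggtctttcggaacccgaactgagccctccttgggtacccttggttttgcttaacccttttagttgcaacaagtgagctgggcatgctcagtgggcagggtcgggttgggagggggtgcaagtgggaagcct
Gys1, chr7:45434589-45434838, + strand: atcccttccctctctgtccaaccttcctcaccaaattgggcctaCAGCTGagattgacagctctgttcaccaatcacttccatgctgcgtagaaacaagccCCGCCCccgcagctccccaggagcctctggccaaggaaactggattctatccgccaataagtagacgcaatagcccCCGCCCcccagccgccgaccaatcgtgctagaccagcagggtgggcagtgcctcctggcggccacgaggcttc

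Pygm holds 2 E-boxes, 168 and 8 bases before the start, and Pygb holds none of the 3 motifs. Phka1 holds 1 E-box 38 bases before the start and 3 GC boxes, Pfkfb3 holds 2 GC boxes, Gys1 holds 1 E-box and 2 GC boxes, and Gpd2 holds none. RefSeq promoters were found for 39 of the 41 members, Gpd1 and Slc2a4 being without an entry. The E-box was present in 10 of the 39 (25.6%) and in 13.0% of the 32851 promoters of the table, the GC box in 22 (56.4%) and 32.7%, and the TATA box in 2 (5.1%) and 12.4%. The median GC content of the members' windows was 60.0%, against 52.4% in the table. These sets are unlike. For each member 1 start was taken, while the table holds more than 1 start for some genes and was not limited to genes counted here. The TATA box matches lay 108 bases before the start in Pgm1 and 149 and 97 bases before it in Ppp1r3a. A match describes the letters only and does not show that a factor binds there.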

How the data were processed

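Per the labels and the study's methods, RNA of EDL, psoas, and soleus was made into libraries with a stranded total RNA kit. The authors trimmed 4 of the libraries, aligned read pairs with TopHat2 2.1.1 to the mouse genome (mm10, GRCm38.p4), and deposited 1 file of raw, unnormalized counts for each library. All 16112 genes met the study's filter (10 or more reads in 3 or more samples). The strand setting of the counting and the handling of reads with several alignments are not given in the sources used here. Total counts were 12737971 to 50431713 per library, and the lowest count of a member in any library was 13. Replicates share animals in part, so p-values measure the spread between these libraries.

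Muscles were taken from the labels. The 3 comparisons were made in 1 edgeR 4.0.16 quasi-likelihood fit (R 4.3.3) over the 10 libraries, with TMM normalization, no covariate, and Benjamini-Hochberg adjustment over all genes. The study's thresholds (fold change above 2 with adjusted p below 0.01) defined a call, and genes with an adjusted p below 0.05 at any fold were counted as well. Shares of isozymes came from counts per kilobase of summed exon length and were compared with exact two-sided permutation tests. Symbols, positions, and lengths were taken from GENCODE M21 (GRCm38), promoters from RefSeq (GRCm38.p6). Near-identical genes were sought among the transcripts of that annotation (at least 95% identity over at least 150 bases). Tables and figures were made with Python 3.11.15, pandas 2.3.3, scipy 1.17.1, and matplotlib 3.10.9.

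The members, the 2 further pathway lists, and the marker lists were chosen with earlier results of these data known, so they were given no test of their own. Every member is reported, with values per library for members that passed a test or belong to an isozyme family, and from the other lists only called genes are named. The values of 1 called gene of these lists are not reported here. The 20 alternatives were DESeq2 1.42.0, limma-voom (limma 3.58.1) with the animal as a random effect (consensus correlation 0.2409), 2 other normalizations, another filter on low counts, fits of 2 muscles alone, read trimming as a covariate, untrimmed or trimmed libraries only, the replicate number as a block, and each of the 10 libraries left out.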

Additional observations from a re-analysis of the deposited data

Results flagged for a closer look

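Of 49 values tested in the 4 soleus libraries with Dixon's ratio, 2 had a library far from the other 3, and chance gives about 1 in 20 such values. Phkg1 was at 102.57 CPM in soleus 1, against 57.0 to 59.0 CPM in the other soleus libraries, with a ratio of 0.956. It stayed called lower in soleus in both comparisons when soleus 1 was left out. The share of Pfkp in the phosphofructokinase family was 0.199% in soleus 4, against 0.148% to 0.154% in the others, with a ratio of 0.878. The ratio was not applied to EDL and psoas, which have 3 libraries each.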

How the results depend on the processing

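Of the 1798 log2 fold changes of the 31 members that passed 0.05 in any comparison, recomputed under the alternatives, 1675 kept their side of the call thresholds, 101 lost the call, 22 gained it, and 0 of those past 0.05 changed direction. Most of the 1798 had no call to lose, and changes of direction were counted only for those past 0.05. With untrimmed libraries only, 25 of the 31 members kept their sign in psoas vs EDL, 30 in soleus vs EDL, and 31 in soleus vs psoas. Pfkm, Fbp2, Gpd2, Phkb, Phkg1, and Stbd1 changed sign in psoas vs EDL. With all libraries their mean CPM was highest in psoas. The 101 losses all fell on the 11 calls in soleus vs EDL, the 20 in soleus vs psoas, and the 2 in psoas vs EDL. With untrimmed libraries only, the members called numbered 2 in soleus vs EDL, 1 in soleus vs psoas, and 0 in psoas vs EDL, those past 0.05 10, 13, and 0, the medians −0.95 (soleus vs EDL) and 0.21 (psoas vs EDL), and the other pathway genes called 1, 1, and 0. With trimmed libraries only, 0 members were called in psoas vs EDL. With read trimming as a covariate, the median in soleus vs EDL was −0.72, and 2 (soleus vs EDL, main value 5) and 4 (psoas vs EDL, main value 1) other pathway genes were called. DESeq2 gave 5 members called and 12 past 0.05 in psoas vs EDL, and 8 (soleus vs EDL) and 5 (psoas vs EDL) other pathway genes. The fit of psoas and EDL alone gave 1, 3, and 0, and limma-voom 3 other pathway genes in psoas vs EDL. Without 1 library at a time, members called ranged from 6 to 11 in soleus vs EDL, lowest without soleus 2 (6) and soleus 4 (7), from 15 to 21 in soleus vs psoas, and from 1 to 3 in psoas vs EDL. Members past 0.05 in psoas vs EDL ranged from 2 (without EDL 1 or psoas 1) to 14 (without EDL 3), and other pathway genes from 4 to 7, 5 (without psoas 2) to 8, and 0 (without EDL 1 or EDL 2) to 5 (without EDL 3). The causes were not tested. The 14 isozyme pairs without overlap became 14 to 20 under the alternatives.

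The replicate numbers were not taken as pairs. Of 9 same-numbered pairs of libraries, 1 (psoas 1 and soleus 1) has the same animal code, and the correlations of their deviations ran from −0.234 to 0.503 (0.248, 0.0881, and 0.503 for EDL and psoas, which share age and trimming by number). With the replicate number as a block, 6, 13, and 1 members were called and 15, 22, and 4 passed 0.05 in soleus vs EDL, soleus vs psoas, and psoas vs EDL, and 5, 5, and 0 other pathway genes were called. The 13 calls lost with the block (adjusted p 0.0107 to 0.0414) were those of Tpi1, Pgm1, Phkb, Ppp1r3a, and Stbd1 in soleus vs EDL, Aldoa, Pfkp, Gapdh, Pgk1, Pgam2, Eno3, and Pygm in soleus vs psoas, and Pfkp in psoas vs EDL.

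With 3 or 4 libraries a muscle, low members such as Slc2a1, Hk1, Pgam1, and Ppp1r3d rest on few counts. Gapdh, Pgk1, Eno1, and Phkg1 cannot be fully separated from genes that share their sequence, nor Pfkp from a gene on the other strand. Exons of Gpi1, Pfkm, Aldoa, Tpi1, Gapdh, Pfkfb1, Gpd1, Pgm1, Ugp2, Gys1, and Phkg1 also overlap those of a counted gene on the other strand. The part of this in their values was not tested. Trimming and sex go together in EDL and psoas, where the trimmed libraries are from mice of 42 and 54 days and the untrimmed ones from mice of 44 days. All 4 soleus libraries are untrimmed, so trimming is in part tied to the soleus comparisons as well. The libraries were sequenced in several runs, per the study's methods. For its heatmaps and principal components the study corrected expression values for the sequencing batch. The run of each library is not listed here, and its part in these values was not tested.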
